A study of Mus musculus with 6 samples.

Results

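Integrins are the receptors by which cells hold on to the extracellular matrix, and laminins are the matrix proteins of the basement membrane that surrounds the neural tube and its vessels. All probe sets of a mouse expression array that the annotation gives to a single gene named Itga or Itgb with a number, Itgav, or Lama, Lamb or Lamc with a number were read as a set. They numbered 66 of 45037 non-control probe sets and covered 29 of 18193 annotated genes, namely 11 integrin alpha chains, 8 integrin beta chains, 5 laminin alpha chains, 3 laminin beta chains and 2 laminin gamma chains. The integrin alpha chains that carry a letter other than v in their name, which belong to leukocytes, and Itga2b of platelets are not members. Itga11 was not analysed here.

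The samples were 6 pools of GFP-positive cervical motoneurons of HB9::GFP transgenic mice at E11.5, taken by laser capture. A left and a right pool came from the same sections of each of 3 embryos of 1 litter, so that 3 left and 3 right pools share genotype, age and litter. HB9 (Mnx1) is a homeodomain factor of motoneurons, and its promoter drives the GFP that guided the capture, which takes in whatever lies among the marked cells. The 10 motoneuron markers all reached the signal limit used below, with sums of 51436 to 64720 in left and 47779 to 72650 in right pools. The right pool of embryo 1 stood apart by markers of mesenchyme, with a summed signal of 19796 against 1345 to 3141 in the other pools, and of skeletal muscle, with 6713 against 330 to 450. Values without embryo 1 are therefore given for the main results. The study asked whether cervical motoneurons, some of which form the phrenic nerve, express different genes on either side of the body.

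An integrin is a dimer of an alpha and a beta chain, and the pair decides what it binds: chains such as Itga3, Itga6 and Itga7 pair with Itgb1 to bind laminins, Itga5 and Itgav form receptors for fibronectin and vitronectin that read the RGD sequence, Itga4 binds fibronectin and Vcam1, and Itga9 binds tenascin-C among others. A laminin is a trimer of an alpha, a beta and a gamma chain, of which the alpha chain carries the main integrin binding site. In the embryonic spinal cord the pial basement membrane anchors the end feet of progenitors and borders the exit points of motor axons, whose growth cones advance on laminin and fibronectin by means of integrins.

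Each value below is the deposited MAS5 signal of a probe set, on a linear scale. The signal depends on the probes as well as on the transcript, so signals of different genes are not set against each other as amounts of RNA. A signal limit of 200 in at least 1 pool, the one of the study's methods, decided whether a probe set was tested. In each embryo the log2 of right over left, log2(R/L), was formed. The rule of the methods, called the fold rule here, is met when the 3 embryos share a direction and both their mean and no fewer than 2 of them pass 1.5-fold (0.58 in log2). A limma model of side and embryo, with Benjamini-Hochberg adjustment over 21853 tested probe sets, gave the p-values. An exact sign-flip test over 3 embryos cannot give a p under 0.25.

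The beta chain Itgb1, the common partner of most integrin alpha chains, was above the limit in all pools, and so were Itga3 and Itga6, which join it to form laminin receptors. In the left and right pools of embryos 1, 2 and 3, in this order, the brightest probe set of Itgb1 gave 2536 and 2392, 1876 and 1941, and 1826 and 1905. The sides overlapped fully, with a left mean of 2080 ± 396 and a right mean of 2079 ± 272 (SD, n = 3 embryos). Itga6 gave 555 and 524, 496 and 481, and 428 and 503, and Itga3 gave 496 and 368, 299 and 341, and 391 and 426. For neither gene did the 3 embryos agree on a side by its brightest probe set. The mean log2(R/L) was 0.01 ± 0.08 for Itgb1, 0.03 ± 0.17 for Itga6 and −0.04 ± 0.34 for Itga3 (SD, n = 3 embryos; limma adjusted p of 0.997, 0.995 and 0.995), and the sign turned for Itgb1 and Itga6 with arrays scaled to a common median. A dimmer probe set of Itga3, under the limit and not tested, gave 177 and 103, 124 and 113, and 131 and 84.8, every left pool above every right pool. Its dimmest was higher on the right in 2 of 3 embryos. Besides these 3 integrins only Lama4, a laminin alpha chain typical of vessels and mesenchyme, reached 200 in all 6 pools among the members. This makes 4 of 29 member genes (13.8%), where 42.6% of all annotated genes did so by their brightest probe set. Of the 66 probe sets 5 did so, against 36.9% of all single-gene probe sets.

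**Figure D1:**
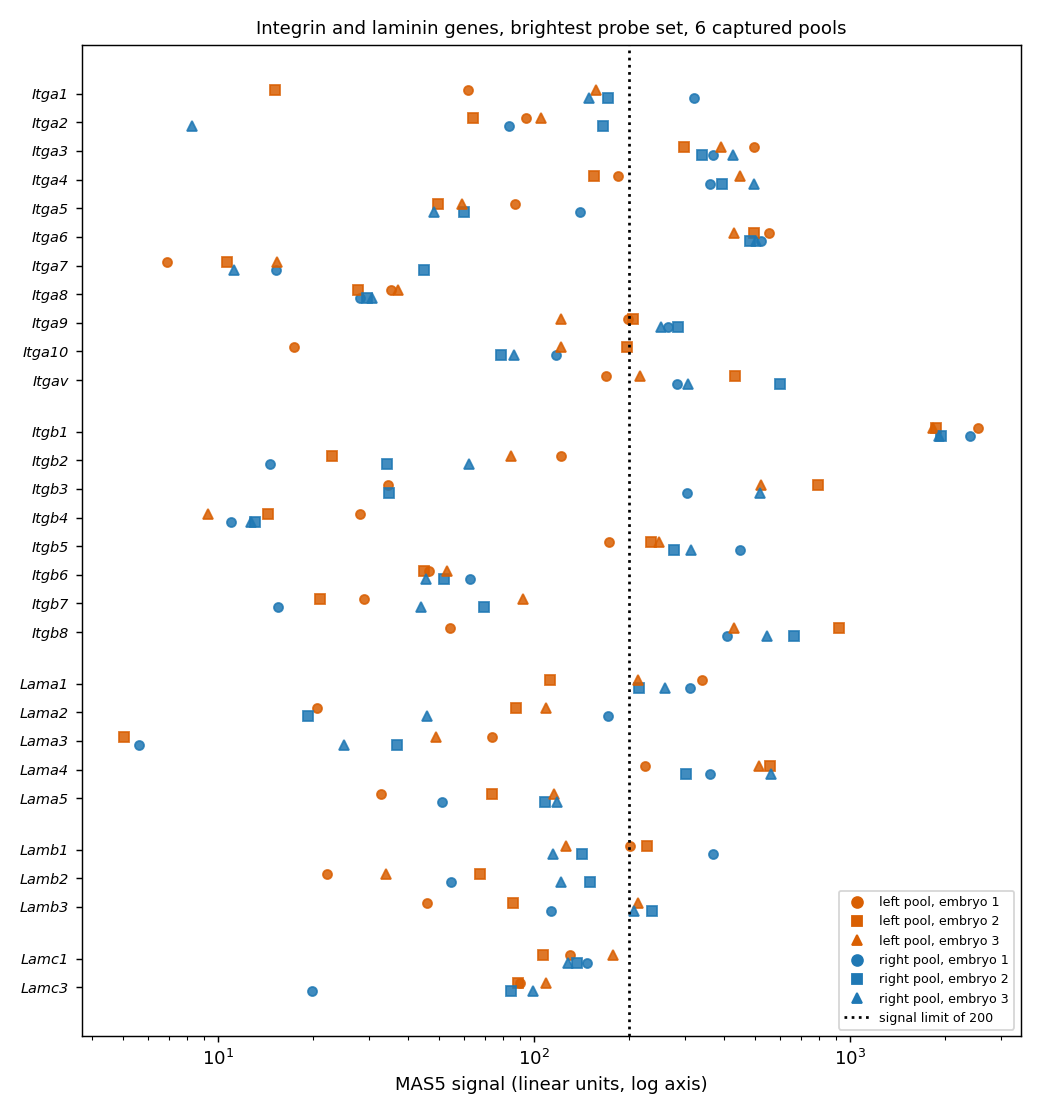
MAS5 signal (log axis) of the brightest probe set of each of the 29 integrin and laminin genes in left pools (orange) and right pools (blue) of embryos 1 (circles), 2 (squares) and 3 (triangles), with the signal limit of 200 as a dotted line. Only Itgb1, Itga3, Itga6 and Lama4 lie to the right of the limit in all 6 pools.

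In all, 21 of the 66 probe sets, for 14 of the 29 genes, reached the limit and were tested. The share of genes was 48.3%, against 57.8% of all annotated genes by their brightest probe set, and 54.2% of all single-gene probe sets reached it. The other 15 genes stayed below it in every pool. Their highest signals over all probe sets ran from 28.1 for Itgb4, the partner of Itga6 in hemidesmosomes of epithelia, to 197 for Itga10, a collagen receptor chain of cartilage. They included Itga7 (44.7), the laminin receptor chain of muscle, Itga8 (37.1), which binds nephronectin, and Itga5 (140), the fibronectin receptor chain. Itga2 (165) is another collagen receptor chain, Itgb6 (87.3) is epithelial, and Itgb2 (122) and Itgb7 (92.4) belong to leukocytes. Among laminins these were Lama2 (172), Lama3 (73.6), Lama5 (134), Lamb2 (150), Lamc1 (178) and Lamc3 (109). No detection calls were used, and a low signal does not show that a transcript was absent.

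The fold rule picked out 1 of the 21 probe sets as right-sided and 0 as left-sided. Among all probe sets tested it picked out 2.40% as right-sided and 1.55% as left-sided, so that this count of 1 is not set apart from the background. With limma 0 of the 21 passed an adjusted p of 0.05, as among all tested probe sets, and 2 had an unadjusted p under 0.05, both higher on the right, where 1.92% of all had, while 1.48% of all had one with the left side higher. A higher signal on the right in 3 of 3 embryos was seen in 6 of the 21 (12.7% of all tested probe sets), and on the left in 0 (10.8%). The mean log2(R/L) was above 0 in 16 of the 21, against 52.5% of all. Of all 21853 tested probe sets 1497 reached the limit in right pools only and 1207 in left pools only. Of the 21 probe sets 4 reached the limit in right pools only (those of Itga1 and the second of Itga4, Itgav and Itgb5) and 2 in left pools only (the third of Itga4 and of Itgb1). These were admitted by the side on which they were high, so the counts describe the tested probe sets and support no direction. Of the 6 higher on the right in every embryo, 2 were of this kind (Itga4 and Itgb5), and so was Itga1 among the 2 with an unadjusted p under 0.05. Without embryo 1 or without embryo 2, 0 members met the fold rule on the right, and without embryo 3 there were 3, while the right-sided count over all tested probe sets went from 524 to 200, 226 and 1070. Without embryo 2 the third probe set of Itga4 met it on the left, with a mean of −1.02.

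The probe set that met the fold rule was the brightest of Itga4, the chain that binds Vcam1 and an alternatively spliced region of fibronectin and is found on neural crest, blood and muscle precursors as well as on neurons. It gave 185 and 361, 155 and 394, and 450 and 497 on the left and right of embryos 1, 2 and 3. Embryo 3 was high on both sides, and its left pool lay above the right pools of the other embryos, so the sides overlapped. The log2(R/L) values were 0.97, 1.34 and 0.14, with a mean of 0.82 ± 0.61 (SD, n = 3 embryos, higher on the right in 3 of 3; limma unadjusted p of 0.0305, adjusted p of 0.974). Over the alternative settings the mean stayed between 0.56 and 1.15 and the adjusted p between 0.917 and 1.00. Without embryo 1 the mean was 0.74. Of its other tested probe sets, 1 gave 102 and 152, 177 and 316, and 121 and 172, a mean of 0.64 ± 0.17 in the same direction in 3 of 3 embryos, but beyond 0.58 in 1 embryo alone. The third gave 255 and 124, 13.7 and 43.2, and 70.3 and 35.2, lower on the right in embryos 1 and 3, with a mean of −0.12 ± 1.55. The tested probe sets of Itga4 thus disagreed.

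The relative of Itga4 in sequence and ligands, Itga9, gave 198 and 265, 205 and 285, and 122 and 252. Every right pool was above every left pool, with a left mean of 175 ± 45.9 and a right mean of 267 ± 16.4 (SD, n = 3 embryos). The log2(R/L) was 0.42, 0.47 and 1.04, with a mean of 0.65 ± 0.35 (limma adjusted p of 0.974), and the fold rule was not met because only embryo 3 passed 0.58. Without embryo 1 the mean was 0.76. The sides were also apart in the same direction for both tested probe sets of Itgb5, 1 of which reached the limit in right pools only. This made 3 of 21 probe sets, where 2.98% of all tested probe sets separated with the right side higher. On the left 0 did, against 2.45% of all. The dimmer probe sets of Itga9 stayed under the limit and were higher on the right in 1 of 3 embryos each.

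Itgav, the shared alpha chain of the vitronectin and fibronectin receptors, gave 169 and 283, 431 and 601, and 216 and 307. It was higher on the right in 3 of 3 embryos by similar amounts, 0.74, 0.48 and 0.51, with a mean of 0.57 ± 0.14 (limma unadjusted p of 0.0657, adjusted p of 0.974), just short of the fold rule, and of 0.49 without embryo 1. Embryo 2 was brighter than the others on both sides, so that the left and right pools overlapped across embryos although each embryo went the same way. A second tested probe set of Itgav gave 0.49, 0.86 and −0.25.

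Itgb5, a partner of Itgav in a vitronectin receptor, gave 173 and 448, 235 and 277, and 248 and 313. The left pools averaged 219 ± 40.0 and the right pools 346 ± 90.1, and log2(R/L) was 1.37, 0.23 and 0.33 with a mean of 0.64 ± 0.63 (SD, n = 3 embryos; limma adjusted p of 0.974). Its second tested probe set read 37.3 and 404, 149 and 201, and 154 and 166. In both probe sets the difference was largest in embryo 1, and without it the mean of the brighter was 0.28. The dimmer probe sets of Itgb5 stayed under the limit and did not agree on a side over the embryos. Their log2(R/L) values were 4.35, −0.14 and 0.87, and 5.66, −0.35 and −0.79. Itgb5 was not among the genes to be listed in full by the rule and was added after its values were seen.

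The 4 genes Itga4, Itga9, Itgav and Itgb5 were thus higher on the right in every embryo by their brightest probe set, 4 of 14 where 12.5% of all tested genes were, and their promoter sequences are shown for that reason. The 250 bases before each start come from RefSeq (build GRCm38.p6), at chr2:79255176-79255425 for Itga4, chr9:118711442-118711691 for Itga9, chr2:83724147-83724396 for Itgav and chr16:33829415-33829664 for Itgb5, all on the plus strand and written 5′ to 3′. Capitals mark GGGCGG, the GC box, on either strand.
Itga4: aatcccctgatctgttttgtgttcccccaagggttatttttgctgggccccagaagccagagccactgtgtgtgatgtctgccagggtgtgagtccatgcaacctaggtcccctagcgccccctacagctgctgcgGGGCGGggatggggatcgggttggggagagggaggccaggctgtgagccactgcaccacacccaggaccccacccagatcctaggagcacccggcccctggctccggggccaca
Itga9: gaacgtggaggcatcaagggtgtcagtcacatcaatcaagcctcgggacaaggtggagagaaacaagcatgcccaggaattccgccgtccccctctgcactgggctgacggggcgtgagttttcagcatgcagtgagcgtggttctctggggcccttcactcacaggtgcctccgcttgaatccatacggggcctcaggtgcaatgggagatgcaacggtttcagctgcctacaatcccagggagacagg
Itgav: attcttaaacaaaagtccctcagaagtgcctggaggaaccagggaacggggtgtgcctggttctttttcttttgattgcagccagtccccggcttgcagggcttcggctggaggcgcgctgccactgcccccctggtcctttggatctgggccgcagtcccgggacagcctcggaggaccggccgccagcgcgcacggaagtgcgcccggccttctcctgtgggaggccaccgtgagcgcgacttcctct
Itgb5: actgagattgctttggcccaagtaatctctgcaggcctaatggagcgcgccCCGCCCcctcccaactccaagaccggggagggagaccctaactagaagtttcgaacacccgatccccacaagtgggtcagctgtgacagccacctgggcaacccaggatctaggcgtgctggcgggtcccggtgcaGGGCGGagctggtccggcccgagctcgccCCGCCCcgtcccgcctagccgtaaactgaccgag
The GC box was found 1 time before Itga4, 3 times before Itgb5 and 0 times before Itga9 and Itgav, and 32.7% of 27025 promoter windows of this length hold it. The CCAAT box (its letters CCAAT), the TATA box (searched as TATAAA) and a homeodomain core (searched as TAATTA) were looked for on both strands as well. None of these letters were in the 4 windows, while 34.2%, 12.9% and 5.0% of all windows hold them, in this order. The windows consisted of G and C by 58.4% to 65.2%, against a median of 52.0% over all. These letter matches describe the windows and do not show that any factor binds there.

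**Figure D2:**
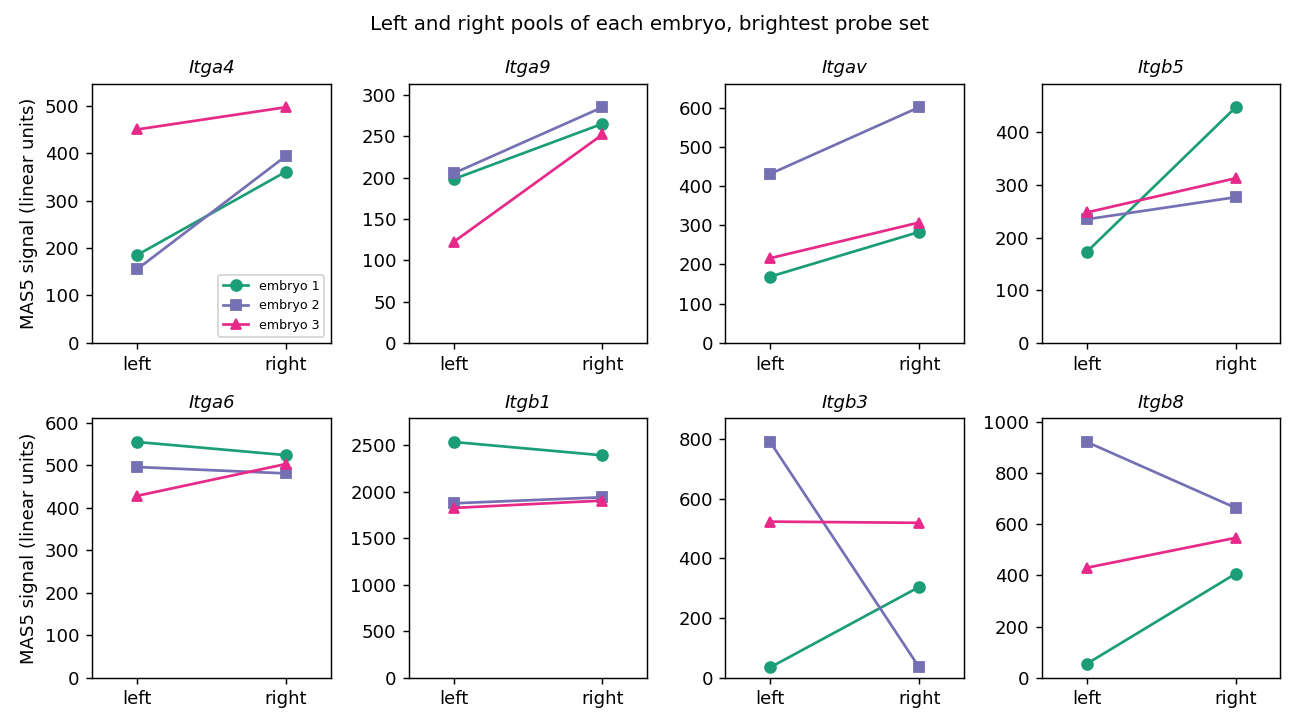
MAS5 signal (linear axis from 0) of the left and right pool of each embryo, joined by a line, for the brightest probe set of 8 integrin genes. The lines of Itga4, Itga9, Itgav and Itgb5 go up to the right in all 3 embryos, those of Itga6 and Itgb1 are nearly flat, and those of Itgb3 and Itgb8 go different ways in different embryos.

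Other integrins varied widely between embryos with no common side. Itgb3, the vitronectin receptor chain of platelets, vessels and osteoclasts, gave 34.4 and 304, 790 and 34.7, and 523 and 519. It thus read high on the right in embryo 1, high on the left in embryo 2 and alike on both sides in embryo 3, and its mean of −0.46 ± 3.85 describes none of them. Itgb8, a partner of Itgav that progenitors of the neural tube use to activate TGF-beta, gave 54.2 and 407, 922 and 664, and 430 and 547, so that the left pool of embryo 1 stood far below the others. The summed signal of 10 progenitor markers was 5084 in that pool and 6285 to 12030 in the others. Of these, 5 had their lowest signal in that pool (Fabp7, Nes, Olig2, Pax6 and Sox2, the last at 26.3 against 193 to 964) and 5 did not (Hes1, Hes5, Nkx6-1, Prom1 and Slc1a3). Whether progenitors among the captured cells took part in the Itgb8 values was not tested. In such captured tissue, fewer cells of a type and less RNA per cell cannot be told apart.

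Itga1, a receptor chain for collagen IV and laminin found on vessels and mesenchyme, had the second unadjusted p under 0.05 (0.0315, adjusted p of 0.974). It gave 62.0 and 321, 15.2 and 171, and 157 and 149, so only the right pool of embryo 1 reached the limit. The mean log2(R/L) of 1.93 ± 1.83 was the largest of the 14 tested genes. It rested on embryos 1 and 2, where the left signals were low and the ratio has no firm size, while embryo 3 gave −0.08. Without embryo 1 the mean was 1.71.

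**Figure D3:**
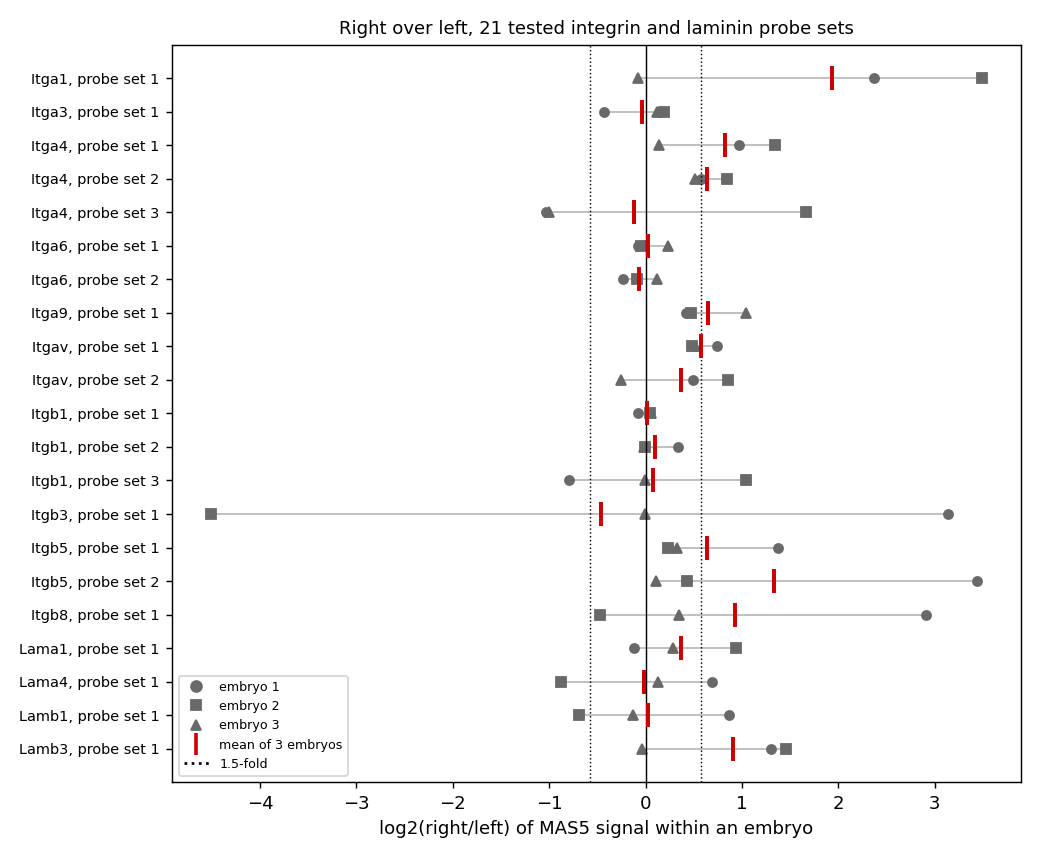
Log2(R/L) of the 21 tested integrin and laminin probe sets in embryos 1 (circles), 2 (squares) and 3 (triangles), with the mean as a red bar and the 1.5-fold limits as dotted lines, probe sets of a gene numbered from the brightest. Most means lie to the right of 0, whereas those of Itgb1 and Itga6 lie close to 0 and Itgb3 spreads from −4.51 to 3.14.

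Of the 10 laminin genes 4 were tested, each by 1 probe set, and 0 met the fold rule or had an unadjusted p under 0.05. Lama4 gave 224 and 361, 559 and 303, and 515 and 564, higher on the right in embryo 1, on the left in embryo 2 and nearly level in embryo 3. Lama1, the alpha chain of the early embryonic basement membrane, gave 339 and 312, 112 and 215, and 213 and 259. Their means were −0.02 ± 0.80 and 0.37 ± 0.54 (SD, n = 3 embryos; limma adjusted p of 0.997 and 0.974). In neither did the 3 embryos agree on a side.

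The beta chains differed likewise. Lamb1, the beta chain of most embryonic laminins, gave 201 and 367, 228 and 142, and 126 and 115, with a mean of 0.02 ± 0.79 (adjusted p of 0.998 with limma) whose sign turned with quantile normalization and with scaling to the median. Lamb3, known from the laminin of epithelial anchoring, gave 46.0 and 113, 86.0 and 237, and 213 and 207. It was above 1.5-fold on the right in embryos 1 and 2 and level in embryo 3 (−0.04), with a mean of 0.91 ± 0.83 (adjusted p of 0.974 with limma).

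Lamc1, the gamma chain of nearly all laminins outside epithelia, stayed below the limit in all pools, at 130 and 147, 107 and 137, and 178 and 128, with a left mean of 138 ± 36.1 and a right mean of 137 ± 9.89 (SD, n = 3 embryos). Lama5, a chain of maturing basement membranes, gave 32.7 and 51.2, 73.4 and 108, and 116 and 118. Lamb2, a beta chain of synaptic and vascular laminins, was also below the limit, but gave 22.1 and 54.5, 67.5 and 150, and 33.9 and 122, beyond 1.5-fold on the right in 3 of 3 embryos with a mean of 1.43 ± 0.37. At signals this low the ratio has no firm size, and this gene was singled out after its values were seen.

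Over the 14 tested genes, each read by its brightest tested probe set, the median of the mean log2(R/L) was 0.47, where it was 0.01 over 10539 tested genes. The mean was above 0 in 11 of the 14, against 52.1% of all. Of the 14, Itga1 was admitted by a right pool only. Integrins had a median of 0.61 (10 genes) and laminins of 0.19 (4 genes). By embryo the integrin median was 0.85, 0.21 and 0.19, and the laminin median 0.78, 0.13 and 0.05, in embryos 1, 2 and 3. Without embryo 1 the integrin median was 0.22, and it was 0.03 when the highest signal had to reach 500. The lowest of the 6 signals lay in a left pool for 13 of the 14 genes (52.3% of all tested genes) and in the left pool of embryo 1 for 6 of them (21.5%), whereas the highest lay in a right pool for 8 (50.3%). The same 6 pools stand behind every gene, so the genes are not independent of each other.

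Receptor chains were next set beside the ligands they are known to bind, pool by pool, with a chain counted in a pool where its brightest probe set reached 200. Of 20 combinations of an alpha chain, a beta chain and a ligand, 19 could be read, and 0 were complete in all 6 pools. For laminin the receptor side was complete, with Itga3 and Itga6 beside Itgb1 in 6 of 6 pools, while the ligand side was complete in 0 pools. Lamc1 stayed below the limit in every pool, and so did Lama5, the alpha chain set beside Itga3. Lamb1 reached it in 2 left pools and 1 right pool, and Lama1 in 2 left and 3 right pools. Of 11 laminin trimers that could be read, 0 were complete in any pool. With a limit of 100, the trimers of Lama1 or Lama4 with Lamb1 and Lamc1 were complete in all 6 pools, and so was the combination of the first with Itga6 and Itgb1.

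For fibronectin the ligand gene Fn1 reached the limit in 6 of 6 pools, and the receptor of Itgav and Itgb1 was complete with it in 5, namely 2 left and 3 right pools. The receptor of Itga4 and Itgb1 was complete with Fn1 in 4, namely 1 left and 3 right pools, while Itga5 was below the limit throughout. Vitronectin (Vtn) reached 200 in the left pool of embryo 2 alone, so that the receptors of Itgav with Itgb3, Itgb5 or Itgb8 met their ligand in 1 pool each. Tenascin-C (Tnc) and Vcam1, ligands of Itga9 and Itga4, reached it in the right pool of embryo 1 alone. Nephronectin (Npnt) reached it in 3 pools, where its receptor chain Itga8 did not. Ligands can also come from cells outside the captured region, such as those of muscle, vessels or the meninges, so a missing ligand here does not mean a missing ligand in the embryo.

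**Figure D4:**
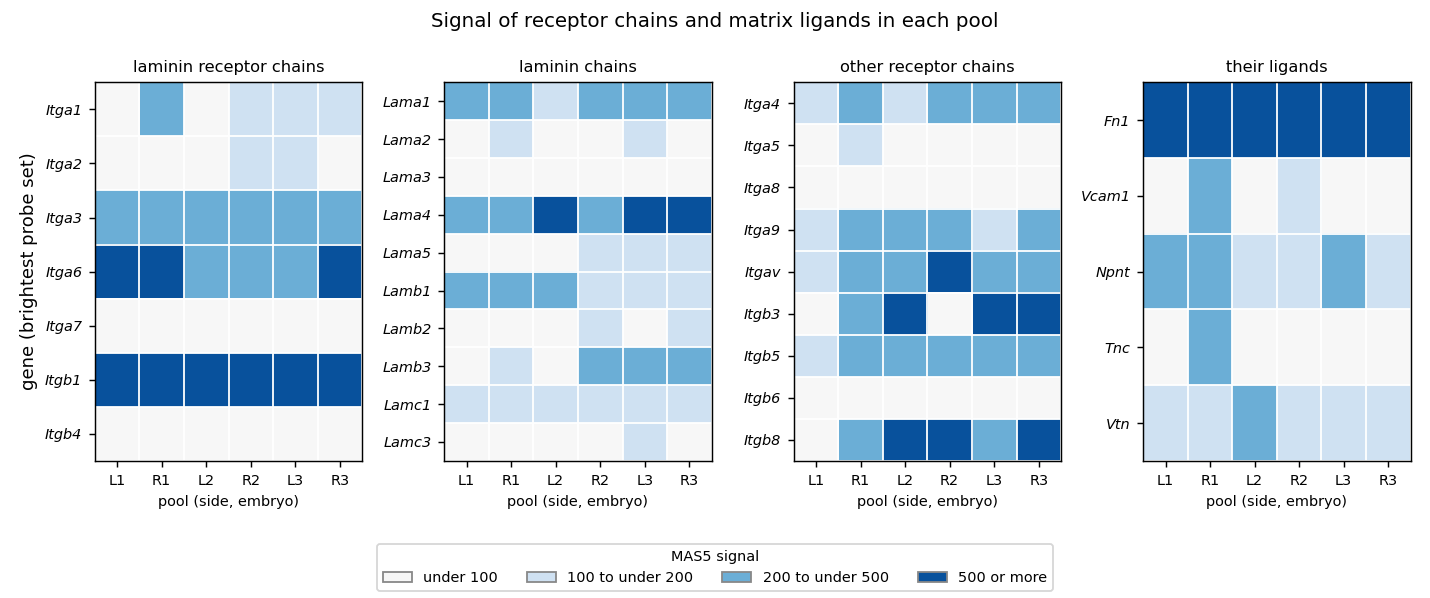
Signal class of laminin receptor chains, laminin chains, other receptor chains and their ligands (brightest probe set) in each pool, with L and R for the side and 1 to 3 for the embryo, from white (under 100) to dark blue (500 or more). Itga3, Itga6 and Itgb1 are at 200 or more in every pool beside Lamc1 at 100 to under 200, and Fn1 is at 500 or more throughout.

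Inside the cell, integrins are tied to actin by talin, kindlin and the kinases that gather at focal adhesions. Of 38 genes of this apparatus 33 were tested, and 1 met the fold rule, Cd9 on the left. Cd9, a tetraspanin that sits beside integrins in the membrane, gave 196 and 103, 231 and 125, and 178 and 118, every left pool above every right pool as in 2.58% of all tested genes, with a mean log2(R/L) of −0.80 ± 0.18 (SD, n = 3 embryos; limma adjusted p of 0.974). Cd9 reached the limit in 1 left and 0 right pools. It was thus admitted by the side on which it was high, and its call supports no direction. With limma 0 of the 33 passed, and 0 had an unadjusted p under 0.05, where 2.09% of all tested genes had one with the right side higher. The median over the list was 0.00, in embryos 1 to 3 0.06, −0.02 and −0.05. Of all tested genes, 1.29% met the fold rule on the left and 2.08% on the right. The brightest of the list were the adaptor Crk, with a left mean of 6605 ± 1318 and a right mean of 6273 ± 178, and the GTPase Rap1b, which activates integrins, with means of 6624 ± 967 and 5951 ± 825 (SD, n = 3 embryos).

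Of 18 genes for other laminin receptors and basement membrane proteins 15 were tested, and 2 met the fold rule on the right, Col4a1 and Col18a1, both collagens of basement membranes. Among all tested genes 2.08% met it on the right and 1.29% on the left. Col4a1 gave 1106 and 3067, 1384 and 2151, and 1887 and 1892, with a mean of 0.70 ± 0.74 (limma unadjusted p of 0.0229, adjusted p of 0.974), and embryo 3 was level. Col18a1 gave 199 and 316, 128 and 279, and 176 and 211, with a mean of 0.68 ± 0.43 (limma adjusted p of 0.974). Of the 15 genes 2 reached the limit in right pools only, Col18a1 among them, and 1 in left pools only. Over all 10539 tested genes these counts were 562 and 390. Col18a1 was thus admitted by the side on which it was high, and its call supports no direction. In both collagens the right pools lay above the left ones, which was so for 3.01% of all tested genes. Neither met the rule with quantile normalization or scaling to the median. Rpsa, a ribosomal protein also described as a laminin receptor, and Megf9, a transmembrane protein with laminin-type repeats, had the highest signals, at means of 8959 and 4185. The median over the list was 0.10.

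Of 21 genes for integrin ligands other than laminin 13 were tested. The fold rule was met on the right by 2, against 2.08% of all tested genes. These were Vcam1 and Col1a2, with limma adjusted p of 0.974 each. Over all 10539 tested genes 562 reached the limit in right pools only and 390 in left pools only. Of the 13, 4 reached the limit in right pools only, Vcam1 among them, and 1 in left pools only. Such genes were admitted by the side on which they were high, so the count and medians of the list support no direction. Vcam1 gave 43.8 and 232, 76.7 and 108, and 55.5 and 87.5, and Col1a2, a fibrillar collagen chain, 882 and 8264, 292 and 946, and 740 and 793. Without embryo 1 the count was 0. Edil3, an RGD protein that binds Itgav receptors, was the brightest of the list, with a left mean of 6090 ± 1037 and a right mean of 5656 ± 423 (SD, n = 3 embryos). The median over the list was 0.45, with 1.56, −0.06 and 0.10 in embryos 1, 2 and 3. This list shares 4 genes with the mesenchyme markers that follow.

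Markers of mesenchyme were read in the same way. Of 18 mesenchyme and sclerotome markers 13 were tested. Of these 8 reached the limit on the right only, as did 562 of all 10539 tested genes. The median log2(R/L) of the 13 was 3.49, 1.17 and 0.06 in embryos 1, 2 and 3. Of the 13, 6 met the fold rule on the right, where 2.08% of all tested genes did. As 8 were admitted by the side on which they were high, this count and the medians support no direction. The summed signal of the 18 was 1345 to 2541 in left pools and 2512 to 19796 in right pools. Among their defining genes Pax9, Nkx3-2, Foxc2, Meox1 and Twist1 stayed under the limit in every pool. Pax9 was higher on the right in 0 of 3 embryos, Nkx3-2 in 1, and Foxc2, Meox1 and Twist1 in 3. The integrin medians were 0.85, 0.21 and 0.19 and the laminin medians 0.78, 0.13 and 0.05 in the same order. Of the 14 tested members, 3 had their highest signal in the right pool of embryo 1 (Itga1, Itgb5 and Lamb1). In its left pool 4 did (Itga3, Itga6, Itgb1 and Lama1), and the rest were highest in embryo 2 or 3. In embryo 3 log2(R/L) was 0.14 for Itga4, 1.04 for Itga9, 0.51 for Itgav and 0.33 for Itgb5. The part of mesenchyme cells in the integrin and laminin values was not tested.

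The other marker lists are given in the same order of embryos. All 10 motoneuron markers were tested, with medians of −0.07, −0.10 and 0.02 in the 3 embryos and 0 by the fold rule. Endothelial and mural markers had medians of −0.06, 0.25 and −0.02 (10 of 14 tested), progenitor markers 0.39, −0.48 and −0.15 (6 of 10), macrophage and microglia markers −0.05, 0.25 and −0.18 (5 of 9), and neural crest, glia and sensory ganglion markers −0.22, −0.08 and −0.12 (3 of 8). Skeletal muscle markers gave 3.60, −0.69 and −0.13 (8 of 10, all reaching the limit on the right only) and erythroid markers 1.28, −0.39 and −0.23 (4 of 6). The median log2(R/L) of erythroid and progenitor markers was highest in embryo 1, as was that of integrins and laminins. Those of mesenchyme and skeletal muscle were too, but 8 of 13 and 8 of 8 genes were admitted by right pools only. The medians of these 2 lists therefore support no direction. All these medians concern the ratio and not the signal, since the summed signal of progenitor markers was lowest in embryo 1, at 5084 and 6285. Itgb2, the beta chain of leukocyte integrins, was under the limit in all pools.

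**Figure D5:**
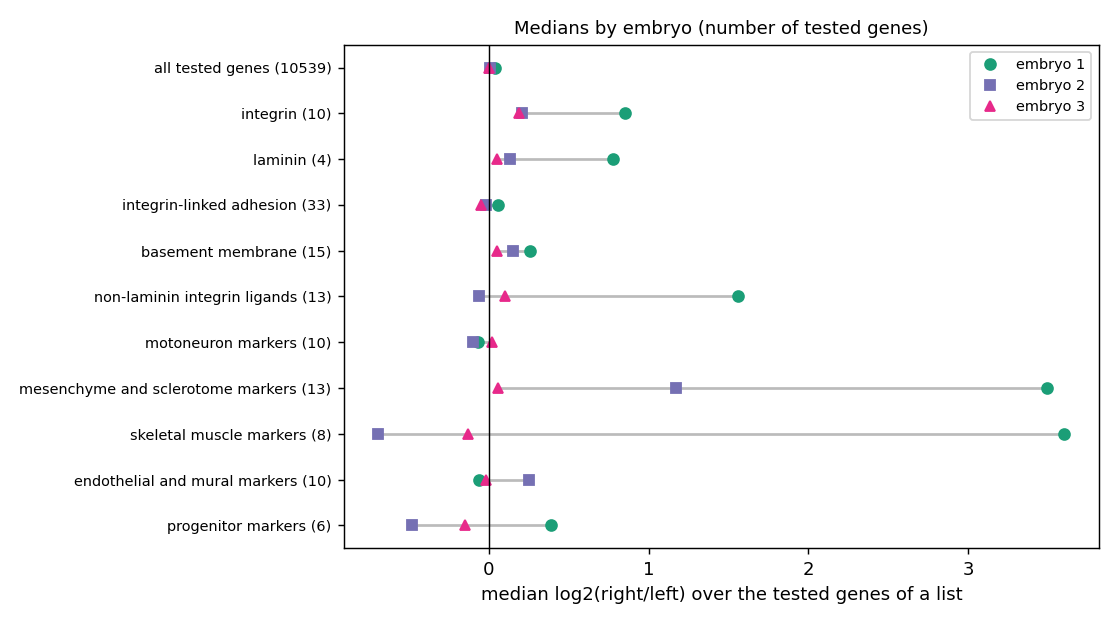
Median log2(R/L) over the tested genes of each list in embryos 1 (circles), 2 (squares) and 3 (triangles), with the number of tested genes in parentheses. The medians of integrins, laminins, ligands, mesenchyme and muscle are highest in embryo 1, those of the adhesion apparatus and of motoneurons stay within 0.10 of 0. Right pools alone admitted 4 of 13 ligand, 8 of 13 mesenchyme and 8 of 8 muscle genes, so these 3 lists support no direction.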

How the data were processed

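The 6 samples are laser-captured pools, 1 left and 1 right from each of 3 embryos, each read on an Affymetrix Mouse 430 2.0 array. The deposited values are signal intensities per probe set, which the authors obtained with MAS5 in Affymetrix Expression Console (version not given in the sources used here), from amplified RNA on a linear scale, with array medians of 99.6 to 118. The number of arrays limits the precision. Of 45101 probe sets, 64 controls were left out. Annotation gave 34945 of the others to 1 gene, 932 to several and 9160 to none.

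Probe sets with a highest signal of at least 200 were tested, and signals were taken to log2 without an added constant. The model had a term for side and a term for each embryo and was fitted by limma 3.58.1 (R 4.3.3), with variances moderated by a trend and Benjamini-Hochberg adjustment (threshold 0.05). Both pools of an embryo come from the same animal and sections, which pairs them. After subtraction of side means they correlated at 0.241, 0.215 and 0.495 over 21853 probe sets. The test was checked on simulated data. A gene was read by its brightest probe set by mean signal. Lists were described by counts and medians. Detection calls were not used here.

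The members and lists were chosen with earlier results of these data known. Values in every pool are given for members that met the fold rule or had an unadjusted p under 0.05, for the 5 integrin alpha, 3 integrin beta and 6 laminin genes of highest mean signal and for members whose tested probe sets differ by more than 1 in mean log2(R/L), of which there were 0. Of the other lists, genes that met the fold rule and the 2 of highest signal are named, with further ligands as the receptor combinations require. Alternatives were quantile normalization, scaling to the median, 50 added to each signal, other signal limits, each embryo left out, a 2-fold limit, a change beyond 1.5-fold in all 3 embryos, no replicate block, variances without a trend and a gene's probe sets averaged. Promoter sequences are those of RefSeq.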

Additional observations from a re-analysis of the deposited data

How the results depend on the processing

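With limma, 0 integrin or laminin probe sets passed an adjusted p of 0.05 under any alternative, with 0 to 4 at an unadjusted p under 0.05. With no replicate block, that is without embryo as a term, 0 passed and 0 had an unadjusted p under 0.05. With embryo as a term these counts were 0 and 2, so the pairing of the pools changed no adjusted call. The count of members by the fold rule on the right was 1, and it became 3 with quantile normalization, 3 with scaling to a common median, 5 with no limit on the highest signal, 0 with a limit of 500, 0 with a 2-fold limit and 0 with a change beyond 1.5-fold in all 3 embryos. It was 0 to 3 with an embryo left out. On the left the count was 0, or 1 with no limit, and 0 to 1 with an embryo left out. The integrin median of 0.61 became 0.14 with no limit and 0.03 with a limit of 500, and was 0.22 to 0.68 with an embryo left out.

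Adhesion genes by the fold rule went from 1 to 0 with a limit of 500 or of 200 on the mean signal, and to 1 to 2 with an embryo left out. Basement membrane genes went from 2 to 0 with quantile normalization and with scaling to the median, and to 1 with 50 added, with a limit of 500 and with a gene's probe sets averaged, and were 0 to 2 with an embryo left out. Ligand genes went from 2 to 1 with 50 added, with a limit of 500 and with 200 on the mean signal, and to 4 with no limit, and were 0 to 2 with an embryo left out. With a limit of 100, 4 receptor and ligand combinations and 2 laminin trimers were complete in 6 pools, against 0.

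The mean log2(R/L) changed sign with scaling to the median for Itga6 (−0.05), Itgb1 (−0.08) and Lamb1 (−0.07), and with quantile normalization for Lamb1 (−0.03). With an embryo left out it ran from −0.15 to 0.16 for Itga3 (the latter without embryo 1), from −0.06 (without embryo 3) to 0.09 for Itga6, and for Itgb1 it was −0.01 without embryo 2 and −0.02 without embryo 3, up to 0.05 without embryo 1. It ran from −2.26 to 1.57 (without embryo 2) for Itgb3, from −0.06 (without embryo 1) to 1.63 for Itgb8, from −0.38 to 0.41 (without embryo 2) for Lama4 and from −0.41 (without embryo 1) to 0.37 for Lamb1. None of these genes had met the fold rule or the test. The other 117 values of single genes kept their direction. The cause of these changes was not tested.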
